A study of Mus musculus with 7 samples.

Results

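Endothelial and endocardial genes were examined in the outflow tract (OFT), the vessel that leaves the embryonic heart, of control and *Gata6STOP/+* mouse embryos at embryonic day (E) 11.5. The set was chosen by name and has 45 genes, of which 44 were among the 14732 genes in the deposited values. *Tal1x* was the name without an entry. Each library was 1 pool of OFTs. The labels give 3 control pools (genotype WT, replicates 3, 4 and 5) and 4 *Gata6STOP/+* pools (replicates 1, 3, 4 and 5), whereas the methods describe, for either genotype, 3 pools made from 4 pairs of OFTs. *Gata6STOP/+* embryos carry 1 copy of *Gata6* with a frameshift and premature stop codon made with CRISPR-Cas9. The allele is a germline change in every cell, from 1 selected founder that was backcrossed to C57BL/6. The study's resource list names *Mib1* variants as the background of this line, and whether the pools carried a *Mib1* allele is not given in the sources used here. The comparison asks how the loss of 1 copy of *Gata6*, which encodes a zinc-finger transcription factor, bears on the OFT transcriptome.

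The endocardium is the endothelial lining of the heart. In the OFT it is continuous with the endothelium of the aortic sac, and part of it undergoes a transition to mesenchyme that fills the cushions from which the arterial valves form. Vascular endothelial growth factors (VEGFs) act through tyrosine kinase receptors on these cells, the TIE receptors bind or modulate signals of the angiopoietins, and factors of the ETS and SOXF families hold the endothelial program in place. Arterial, venous, lymphatic and endocardial cells share this program and add genes of their own. The genes were therefore separated into 33 listed pan-endothelial genes, 2 endocardial genes (*Nfatc1* and *Npr3*), 3 arterial genes (*Sox17*, *Gja4* and *Gja5*), 2 genes of sprouting and venous cells (*Apln* and *Aplnr*) and 4 lymphatic genes (*Flt4*, *Prox1*, *Lyve1* and *Gpr182*). Several are not exclusive to these cells. *Gja5* and *Prox1* are also used by cardiomyocytes, *Lyve1* by macrophages, and *Vwf* and *Fli1* by megakaryocytes.

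None of the 44 genes passed the test for a difference between genotypes. The smallest adjusted *P*-value was 0.271, for *Ptprb* (limma). Across all genes, 0 of 14732, or 0.0%, passed this threshold of 0.05, and 1187 (8.06%) had an unadjusted *P*-value under 0.05. In this group the latter held for 11 of 44 genes, with 6 higher (4.17% of all genes, *Ptprb*, *Flt1*, *Clec14a*, *Myct1*, *Erg* and *Aplnr*) and 5 lower (3.88% of all genes, *Flt4*, *Icam2*, *Robo4*, *Ushbp1* and *Gpr182*) in *Gata6STOP/+* pools. These genes share their source cells, so they are not independent of each other. EdgeR's quasi-likelihood test on the recovered reads also gave 0 of the 44 genes. Its likelihood ratio test (0.713% of all genes) and DESeq2 (0.597%) each gave 1, *Ptprb*. The median log2 fold change over the 44 genes was 0.05, against -0.00073 over all genes, with 26 above and 18 below 0. In bulk tissue, fewer cells of a type and less RNA per cell cannot be told apart.

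The 7 pools had between 17783655 and 34467710 reads on listed genes. *Gata6*, the targeted gene, was at 315, 257 and 286 CPM in the controls (CPM are reads scaled by the authors to a common library size with the TMM method, in the order of replicates 3, 4 and 5). In *Gata6STOP/+* pools it was at 268, 203, 219 and 217 CPM (replicates 1, 3, 4 and 5, the order used throughout), which overlapped the controls (log2 fold change -0.34, standard error, s.e., 0.099, adjusted *P*=0.389 in limma). Of the alternatives, only the likelihood ratio test of edgeR with a block for the replicate number, which rests on 6 pools, called *Gata6* (log2 fold change -0.42, adjusted *P*=0.0164). The study itself reported lower *Gata6* in *Gata6STOP/+* OFTs, both in its edgeR results and by quantitative PCR. Markers of OFT tissue were present, with all 10 myocardium, 7 cushion mesenchyme and 5 smooth muscle markers listed. Of 6 epithelium markers, 3 were listed, and the defining genes *Epcam*, *Cdh1* and *Foxa2* were not among the listed genes. Control replicate 4 stood apart from the other pools in genes of the heart chambers, as described below. With 3 pools against 4, an exact two-sided permutation test cannot give a *P*-value below 0.0571, so the model across all genes was used.

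Promoter sequence was read for 23 of the 44 genes, over the 250 bases before each of 28 RefSeq transcription starts. AGGAAG, a core recognized by ETS factors such as ERG and FLI1, or its reverse complement CTTCCT, stood in 13 of these 28 windows (46.4%), against 27.7% of the 13897 windows of genes in the deposited values. The motif AGATAA (or TTATCT), a form of the site bound by GATA factors, stood in 2 windows (7.14%, against 5.95%), those of *Erg* and *Myct1*. ACAATG (or CATTGT), a SOX core, was in 1 window, of *Erg* (3.57%, against 6.29%). The *Erg* window at chr16:95459349-95459598 was the only one with more than 1 of the motifs, so matches of different motifs could overlap only there. A match describes the sequence only. Sequences of 4 genes are shown as examples. *Flt1* was among the genes with higher means in *Gata6STOP/+* pools, *Emcn* and *Npr3* were highest in 1 control pool, and *Erg* encodes an ETS factor itself. Capitals mark AGGAAG or CTTCCT.
Flt1 (GRCm38.p6, chr5:147726012-147726261, minus strand): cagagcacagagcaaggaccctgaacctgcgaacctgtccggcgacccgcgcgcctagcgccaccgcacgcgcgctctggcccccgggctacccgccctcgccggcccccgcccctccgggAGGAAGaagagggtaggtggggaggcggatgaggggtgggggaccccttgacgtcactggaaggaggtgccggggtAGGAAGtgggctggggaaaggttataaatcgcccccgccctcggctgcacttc
Emcn (GRCm38.p6, chr3:137340828-137341077, plus strand): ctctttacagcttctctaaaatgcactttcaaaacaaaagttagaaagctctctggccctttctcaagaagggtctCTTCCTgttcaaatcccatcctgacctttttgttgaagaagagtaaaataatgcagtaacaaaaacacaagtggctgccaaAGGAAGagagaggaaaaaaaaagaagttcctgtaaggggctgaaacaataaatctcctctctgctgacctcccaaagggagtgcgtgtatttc
Erg (GRCm38.p6, chr16:95586594-95586843, minus strand): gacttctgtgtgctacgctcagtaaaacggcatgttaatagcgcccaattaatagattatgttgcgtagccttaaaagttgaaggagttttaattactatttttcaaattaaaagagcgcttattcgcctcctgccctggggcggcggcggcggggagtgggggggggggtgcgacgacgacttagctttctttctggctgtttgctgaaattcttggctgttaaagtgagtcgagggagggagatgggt
Npr3 (GRCm38.p6, chr15:11907372-11907621, minus strand): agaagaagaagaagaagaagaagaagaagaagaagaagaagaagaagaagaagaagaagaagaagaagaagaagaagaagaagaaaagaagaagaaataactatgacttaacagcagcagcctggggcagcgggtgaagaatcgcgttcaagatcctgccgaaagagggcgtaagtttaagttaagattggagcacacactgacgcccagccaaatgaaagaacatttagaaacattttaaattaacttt
The windows of *Flt1* and *Emcn* hold 2 matches each and those of *Erg* (at this start) and *Npr3* hold 0. The *Npr3* window opens with a long GAA repeat. Of the 3 annotated *Erg* starts, the one at chr16:95459349-95459598 holds 1 match.

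When mean CPM were divided by exonic length (CPM per kilobase), *Eng*, a co-receptor for ligands of the TGF-beta family, had the highest control mean, at 43.4, followed by *Plvap* (42.9), *Cdh5* (41.6) and *Tek* (35.8). These are genes of the caveolar diaphragm (*Plvap*), the adherens junction (*Cdh5*, VE-cadherin) and the angiopoietin receptor (*Tek*). *Pecam1*, which encodes the adhesion molecule CD31, was at 23.3 CPM per kilobase. The endocardial genes lay lower, at 13.1 for *Nfatc1* and 6.54 for *Npr3*. The arterial gene *Gja4* was at 18.1, *Gja5* at 4.72 and *Sox17* at 2.25. At the lower end were *Robo4* (1.38), *Apln* (1.08), *Ushbp1* (0.704) and *Lyve1* (0.549). In *Gata6STOP/+* pools *Eng* was again the highest, at 42.9, followed by *Cdh5* (42.6), *Tek* (39.8) and *Plvap* (36.0). The order of neighbouring genes was not tested.

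The level of these genes moved between pools more than that of other genes. The median s.d. within groups was 0.19 on the log2 scale, against 0.10 for genes in the interquartile range of the group's expression and 0.13 for all genes. Control replicate 4 was the highest pool for 19 of the 44 genes (43.2%), where it was the highest for 11.9% of all genes, and *Gata6STOP/+* replicate 4 was the highest for 15 (34.1%, against 10.1%). The highest pool was control replicate 3 for 2 genes (19.4% of all genes) and *Gata6STOP/+* replicate 1 for 6 (19.3%), replicate 3 for 1 (15.5%) and replicate 5 for 1 (10.3%). Control replicate 5 was the lowest pool for 15 and the highest for 0 (13.5% of all genes). The median deviation of the 44 genes from their own mean over the 7 pools was -0.08, 0.18 and -0.13 (log2) in control replicates 3, 4 and 5 and 0.03, -0.07, 0.13 and -0.04 in *Gata6STOP/+* replicates 1, 3, 4 and 5. Both genotypes thus held pools with high and with low levels, and the groups overlapped. The summed level of the 44 genes was 2308 to 2928 CPM in control and 2416 to 2970.3 CPM in *Gata6STOP/+* pools.

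**Figure D1:**
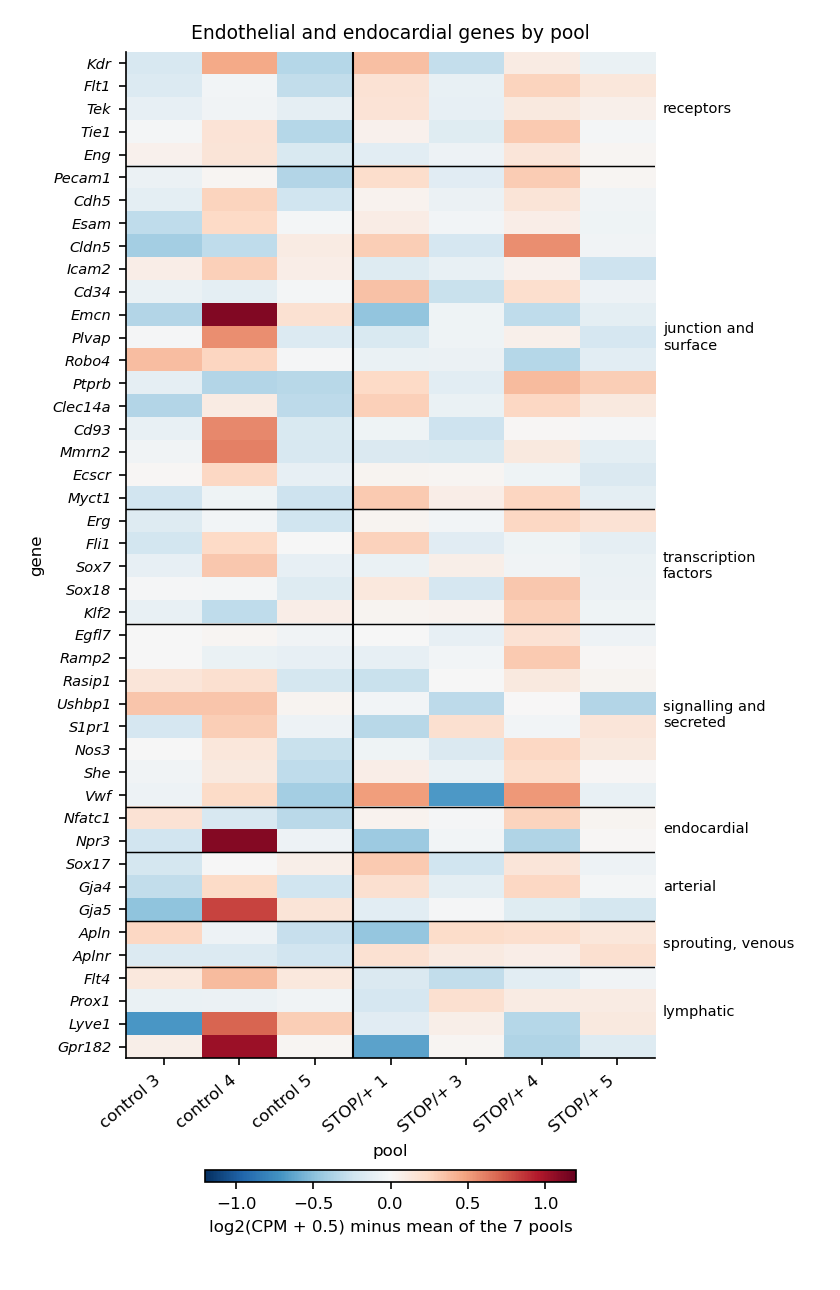
Heat map of the 44 endothelial and endocardial genes (rows, by class) in the 7 pools (columns, with *Gata6STOP/+* pools written STOP/+). Color gives log2(CPM + 0.5) minus the mean of the gene over the 7 pools. *Emcn*, *Npr3* and *Gpr182* are darkest in control replicate 4, and *Gata6STOP/+* replicate 4 is above the mean for most pan-endothelial genes.

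The receptor class came first among the pan-endothelial genes, with *Flt1*, *Kdr*, *Tek*, *Tie1* and the co-receptor gene *Eng*. Its 5 genes had a median log2 fold change of 0.11, with 1 at an unadjusted *P*-value under 0.05 (8.06% of all genes). The VEGF receptor gene *Flt4* is given with the lymphatic genes. *Flt1*, which encodes a VEGF receptor that limits VEGF available to *Kdr*, was at 55.1, 60.5 and 50.2 CPM in control and at 69.9, 58.0, 74.2 and 68.0 CPM in *Gata6STOP/+* pools. All *Gata6STOP/+* pools but replicate 3 exceeded all controls. The mean was 55.3±5.16 CPM (s.d., *n*=3) in control and 67.5±6.86 CPM (s.d., *n*=4) in *Gata6STOP/+* pools, a log2 fold change of 0.29 (s.e. 0.091, adjusted *P*=0.436 in limma). *Kdr*, the main signaling receptor for VEGF-A, was at 87.0, 137 and 78.6 CPM in control pools and at 128, 81.6, 107 and 94.5 CPM in *Gata6STOP/+* pools. Control replicate 4 was the highest of the 7, and the groups overlapped broadly (log2 fold change 0.05, s.e. 0.18). Without control replicate 4, the log2 fold change of *Kdr* was 0.29 (adjusted *P* in limma=0.593). *Tek*, the angiopoietin receptor TIE2, was at 167, 174 and 166 CPM in control and at 201, 167, 195 and 187 CPM in *Gata6STOP/+* pools. Here too *Gata6STOP/+* replicate 3 lay among the controls (log2 fold change 0.15, s.e. 0.069, adjusted *P*=0.632 in limma). The related receptor *Tie1* and the co-receptor *Eng* had log2 fold changes of 0.11 and -0.01, with overlap.

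Of the 15 junction and surface genes, 5 had an unadjusted *P*-value under 0.05, against 8.06% of all genes, and the directions were mixed. *Ptprb* (chromosome 10, 116275523 to 116389535) encodes VE-PTP, a phosphatase that restrains TIE2 and acts on VE-cadherin. It was at 132, 112 and 113 CPM in control pools and at 169, 130.4, 187 and 176 CPM in *Gata6STOP/+* pools. *Gata6STOP/+* replicates 1, 4 and 5 were above all controls, and replicate 3 lay just under control replicate 3. The mean was 119±11.5 CPM (s.d., *n*=3) against 166±24.5 CPM (s.d., *n*=4), or 139% of control (log2 fold change 0.46, s.e. 0.11, adjusted *P*=0.271 in limma). When any 1 pool was left out, its log2 fold change stayed between 0.40 and 0.57, with adjusted *P* in limma between 0.0667 and 0.637. Adjusted *P* was 0.0207 with edgeR's likelihood ratio test and 0.0105 with DESeq2. With a block for the replicate number, that likelihood ratio test called 0 of the 44 genes (smallest adjusted *P*=0.117).

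*Clec14a*, a lectin-like surface protein of endothelium, was at 20.04, 27.6 and 20.7 CPM in control and at 31.4, 24.4, 30.7 and 28.0 CPM in *Gata6STOP/+* pools, so that only control replicate 4 and *Gata6STOP/+* replicate 3 crossed. Its log2 fold change was 0.33 (s.e. 0.12, adjusted *P*=0.522 in limma), and 0.48 without control replicate 4 (adjusted *P*=0.221 in limma). *Myct1*, a target of ETS factors in endothelium, was at 9.59, 10.9 and 9.46 CPM in control and at 14.2, 11.96, 13.6 and 10.4 CPM in *Gata6STOP/+* pools. Its log2 fold change was 0.31 (s.e. 0.12, adjusted *P*=0.542 in limma), with *Gata6STOP/+* replicate 5 under control replicate 4. *Pecam1* was at 151, 160.3 and 124 CPM in control and at 184, 144, 195 and 161 CPM in *Gata6STOP/+* pools. Its groups overlapped at *Gata6STOP/+* replicate 3 (log2 fold change 0.24, s.e. 0.11, adjusted *P*=0.647 in limma). *Cdh5* was at 162, 213 and 149 CPM in control and at 181, 168, 196 and 171 CPM in *Gata6STOP/+* pools. The spread of its controls spanned all *Gata6STOP/+* pools, and the log2 fold change was 0.05 (s.e. 0.11).

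In the same class, *Icam2* and *Robo4* were lower in every *Gata6STOP/+* pool than in every control pool. *Icam2*, an adhesion molecule for leukocytes, was at 29.2, 33.8 and 29.2 CPM in control and at 24.8, 26.0, 28.7 and 23.1 CPM in *Gata6STOP/+* pools. The gap was narrow, at 28.7 against 29.2 CPM, with means of 30.7±2.68 and 25.7±2.35 CPM and a log2 fold change of -0.26 (s.e. 0.091, adjusted *P*=0.503 in limma). *Robo4*, an endothelial member of the Roundabout receptor family, was at 8.20, 7.56 and 6.16 CPM in control and at 5.86, 5.91, 4.80 and 5.67 CPM in *Gata6STOP/+* pools. Its log2 fold change was -0.36 (s.e. 0.13, adjusted *P*=0.522 in limma). Both kept their direction without control replicate 4, at -0.19 and -0.33. Groups did not overlap for 5 of the 44 genes (11.4%), against 8.47% of all genes, a share near the background. Of these, 1 was higher and 4 were lower in *Gata6STOP/+* pools, against 4.31% and 4.16% of all genes.

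There were 5 transcription factors among the pan-endothelial genes, with a median log2 fold change of 0.11. *Erg* (chromosome 16, 95359169 to 95586593), which encodes an ETS factor that maintains endothelial identity, was at 21.2, 23.1 and 19.99 CPM in control and at 24.2, 23.0, 28.1 and 26.7 CPM in *Gata6STOP/+* pools. *Gata6STOP/+* replicate 3 was level with control replicate 4 and the other 3 were above all controls (log2 fold change 0.24, s.e. 0.091, adjusted *P*=0.522 in limma). The other ETS factor, *Fli1*, had a log2 fold change of -0.01. The SOXF genes *Sox7* and *Sox18* were at -0.07 and 0.11, and *Klf2*, which responds to blood flow, at 0.19 (s.e. 0.10). Of these, *Erg* alone had an unadjusted *P*-value under 0.05 (8.06% of all genes).

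The 8 signaling and secreted genes included 1 with an unadjusted *P*-value under 0.05 (8.06% of all genes). *Ushbp1*, which has few reads, was at 4.89, 4.90 and 3.86 CPM in control and at 3.68, 2.93, 3.78 and 2.85 CPM in *Gata6STOP/+* pools. Every *Gata6STOP/+* pool was below every control pool, with a log2 fold change of -0.41 (s.e. 0.15, adjusted *P*=0.534 in limma). *Vwf*, the von Willebrand factor gene, varied most within a genotype in this class. It was at 109.6, 47.9, 112 and 72.7 CPM in *Gata6STOP/+* replicates 1, 3, 4 and 5, a range that spanned the control pools at 74.3, 90.7 and 58.4 CPM. Markers of megakaryocytes, which also use *Vwf*, summed to 22.3 to 25.2 CPM in control pools and to 20.1 to 36.8 CPM in *Gata6STOP/+* pools (5 of 7 listed), with *Gata6STOP/+* replicate 1 the highest and replicate 4 the lowest, and their part in the spread of *Vwf* was not tested. For *Egfl7*, *Ramp2*, *Rasip1*, *S1pr1*, *Nos3* and *She*, the log2 fold changes lay between -0.07 and 0.13, and the groups overlapped.

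**Figure D2:**
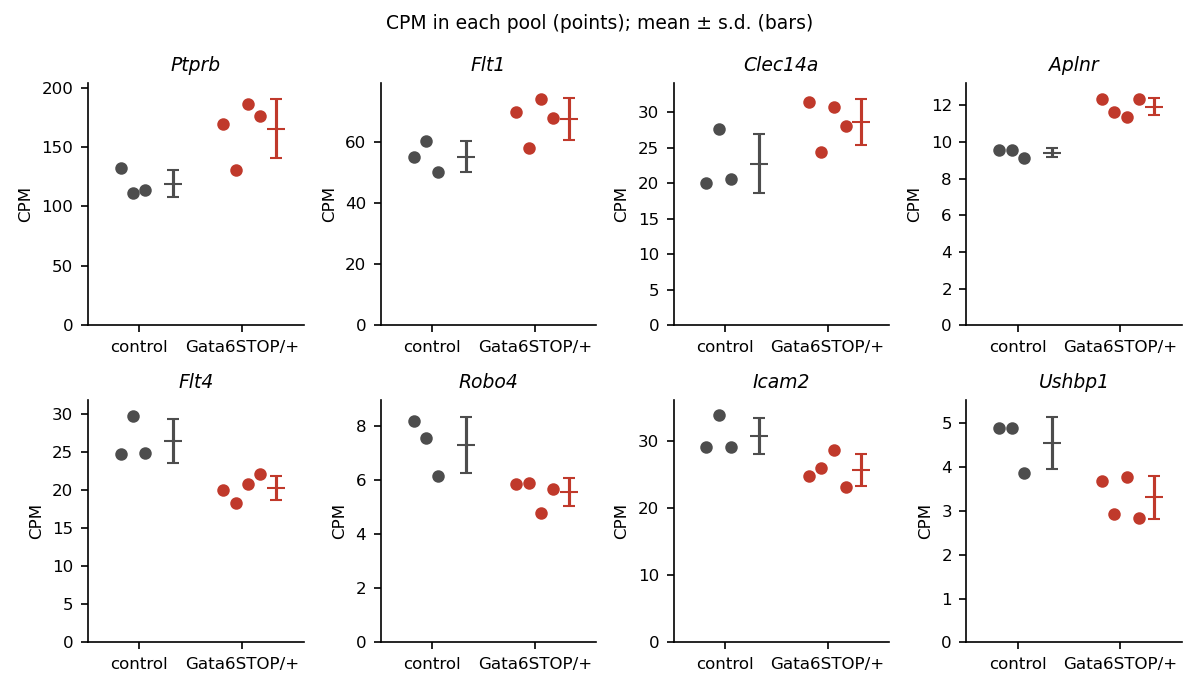
CPM of 8 genes in each pool (points, from left to right in the order of replicate numbers, control in grey and *Gata6STOP/+* in red) with the mean and s.d. beside them. The groups do not overlap for *Aplnr*, *Flt4*, *Robo4*, *Icam2* and *Ushbp1*, and overlap at *Gata6STOP/+* replicate 3 for *Ptprb*, *Flt1* and *Clec14a*.

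The endocardial genes had fold changes of opposite sign. *Nfatc1*, a transcription factor needed for valve formation, was at 118, 91.3 and 83.5 CPM in control and at 108, 103, 126 and 107 CPM in *Gata6STOP/+* pools. The control pools enclosed most of the *Gata6STOP/+* pools (log2 fold change 0.20, s.e. 0.11, adjusted *P*=0.701 in limma). *Npr3*, the natriuretic peptide clearance receptor, which marks endocardium, was at 39.6, 100.1 and 44.5 CPM in control and at 34.2, 45.4, 36.0 and 46.8 CPM in *Gata6STOP/+* pools. Control replicate 4 was 2.14 times the next highest pool, and the other control pools lay among the *Gata6STOP/+* pools. The log2 fold change of *Npr3* was -0.48 (s.e. 0.26, adjusted *P*=0.694 in limma) with all pools and -0.06 without control replicate 4.

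Among the arterial genes, *Sox17*, a SOXF factor of arterial endothelium, was at 9.49, 11.04 and 11.7 CPM in control and at 13.9, 9.31, 12.3 and 10.6 CPM in *Gata6STOP/+* pools, with full overlap (log2 fold change 0.09, s.e. 0.14). *Gja4*, the gap junction gene connexin 37, was at 26.3, 38.0 and 27.4 CPM in control and at 37.1, 29.9, 38.6 and 31.8 CPM in *Gata6STOP/+* pools. Its 2 lower controls were below all *Gata6STOP/+* pools, and the log2 fold change was 0.18 (s.e. 0.13, adjusted *P*=0.783 in limma), or 0.34 without control replicate 4 (adjusted *P*=0.414 in limma). *Gja5*, connexin 40, was at 16.0, 40.1 and 25.3 CPM in control and at 20.6, 22.4, 20.4 and 19.4 CPM in *Gata6STOP/+* pools. The *Gata6STOP/+* pools were close together within the wide range of the controls, and the log2 fold change went from -0.29 (s.e. 0.23) with all pools to 0.04 without control replicate 4.

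Apelin and its receptor mark sprouting and venous cells. *Aplnr*, the receptor, was at 9.59, 9.56 and 9.13 CPM in control and at 12.3, 11.7, 11.4 and 12.4 CPM in *Gata6STOP/+* pools. It was the only one of the 44 genes for which every *Gata6STOP/+* pool was above every control pool, with means of 9.42±0.258 CPM (s.d., *n*=3) and 11.9±0.489 CPM (s.d., *n*=4), a log2 fold change of 0.33 (s.e. 0.089, adjusted *P*=0.351 in limma). The ligand gene *Apln* was at 4.17, 3.28 and 2.74 CPM in control and at 2.35, 4.09, 4.03 and 3.84 CPM in *Gata6STOP/+* pools, with overlap (log2 fold change 0.06, s.e. 0.20).

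Of the lymphatic genes, *Flt4* (chromosome 11, 49609263 to 49652739), which encodes the VEGF-C receptor VEGFR3 and is also used by embryonic blood endothelium and endocardium, was at 24.8, 29.8 and 24.9 CPM in control and at 20.1, 18.4, 20.8 and 22.1 CPM in *Gata6STOP/+* pools. Every *Gata6STOP/+* pool was below every control pool. The mean was 26.5±2.84 CPM (s.d., *n*=3) in control and 20.3±1.56 CPM (s.d., *n*=4) in *Gata6STOP/+* pools, or 76.8% of control, a log2 fold change of -0.37 (s.e. 0.094, adjusted *P*=0.289 in limma). It was -0.29 without control replicate 4, the highest pool, and between -0.42 and -0.29 when any 1 pool was left out. *Prox1*, the transcription factor of lymphatic identity, was at 54.9, 55.4 and 56.3 CPM in control and at 50.4, 66.5, 62.4 and 62.4 CPM in *Gata6STOP/+* pools. The controls lay within 1.38 CPM of each other inside the range of the *Gata6STOP/+* pools (log2 fold change 0.11, s.e. 0.088). Cardiomyocytes also use *Prox1*. Myocardium markers summed to 22382 to 25065 CPM in control and 18295 to 25860 CPM in *Gata6STOP/+* pools, and their part in *Prox1* was not tested. *Lyve1*, the hyaluronan receptor of lymphatic vessels, had between 13 and 71 reads per pool, at 0.623, 2.45 and 1.74 CPM in control and 1.16, 1.41, 0.936 and 1.48 CPM in *Gata6STOP/+* pools. The control pools spanned the *Gata6STOP/+* pools (log2 fold change -0.17, s.e. 0.30, and 0.13 without control replicate 4). Macrophage markers, a cell type that also uses *Lyve1*, were all listed (10 of 10) and summed to 68.7 to 94.4 CPM in control and 50.9 to 124 CPM in *Gata6STOP/+* pools, and their part was not tested. *Gpr182*, a receptor of lymphatic and sinusoidal endothelium, was at 19.0, 37.4 and 18.4 CPM in control and at 11.4, 18.4, 14.0 and 16.2 CPM in *Gata6STOP/+* pools. Control replicate 4 was the highest, and the log2 fold change was -0.66 (s.e. 0.23, adjusted *P*=0.497 in limma), or -0.33 without that pool (adjusted *P*=0.589 in limma).

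A subset of the genes was set apart by 1 pool. Control replicate 4 was at least 1.4 times every other pool for 8 of the 44 genes (18.2%), where this held for 104 of all genes (0.706%). These were *Npr3*, *Gpr182*, *Emcn*, *Gja5*, *Cd93*, *Plvap*, *Lyve1* and *Mmrn2*, and the factor of 1.4 was chosen after the values were seen. *Emcn*, which encodes endomucin, a sialomucin strong in endocardium and venous endothelium, was at 12.4, 35.2 and 18.3 CPM in control and at 11.4, 15.4, 12.9 and 14.7 CPM in *Gata6STOP/+* pools. Its log2 fold change was -0.55 (s.e. 0.27, adjusted *P*=0.648 in limma), or -0.15 without control replicate 4. *Plvap*, *Cd93* and *Mmrn2* (the last encodes a matrix ligand of CLEC14A and CD93) had log2 fold changes of -0.22, -0.18 and -0.21 with all pools and of -0.0063, 0.06 and 0.03 without it. *Cdh5* and *Eng*, by contrast, were at most 1.08 times the next pool.

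Several genes of the chamber myocardium were also highest in control replicate 4. *Nppa*, the atrial natriuretic peptide gene of atria and trabeculae, was at 32.1, 174 and 18.3 CPM in control and at 3.26, 28.3, 6.63 and 11.8 CPM in *Gata6STOP/+* pools. *Nppb*, the gene for its relative BNP, was at 10.2, 58.1 and 13.3 CPM in control and at 3.999, 10.9, 7.28 and 12.7 CPM in *Gata6STOP/+* pools. Control replicate 4 was the highest and *Gata6STOP/+* replicate 1 the lowest for both. Over 7 chamber genes (*Nppa*, *Nppb*, *Cited1*, *Smpx*, *Irx4*, *Myl2* and *Myl3*, chosen after the values were seen, 7 of 7 listed), the summed level was 2639, 3558 and 2602 CPM in control and 1471, 2819, 2198 and 2326 CPM in *Gata6STOP/+* pools. The 10 general myocardium markers, in contrast, summed to 22382 to 25065 CPM in control pools, with control replicate 4 inside this range at 24176 CPM. In *Gata6STOP/+* pools they summed to 18295, 25860, 23475 and 22747 CPM, so that replicate 1 was the lowest and replicate 3 the highest of the 7 pools. The neural crest and glia markers (4 of 6 listed) summed to 33.1, 89.5 and 36.3 CPM in control and to 24.3 to 27.4 CPM in *Gata6STOP/+* pools. Most of the sum in control replicate 4 was *Ednrb*, an endothelin receptor gene, at 81.0 CPM there and 22.5 and 27.8 CPM in the other controls. The remaining lists did not peak in control replicate 4. Their sums in control and *Gata6STOP/+* pools were 514 to 705 and 452 to 553 CPM for cushion mesenchyme, 2541 to 2996 and 2642 to 3490.5 CPM for smooth muscle, 2550 to 6126 and 2952 to 7824 CPM for erythroid cells (11 of 11 listed), and 111 to 181 and 127 to 179 CPM for epithelium. The part of other tissue in the level of the 8 endothelial and endocardial genes was not tested.

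**Figure D3:**
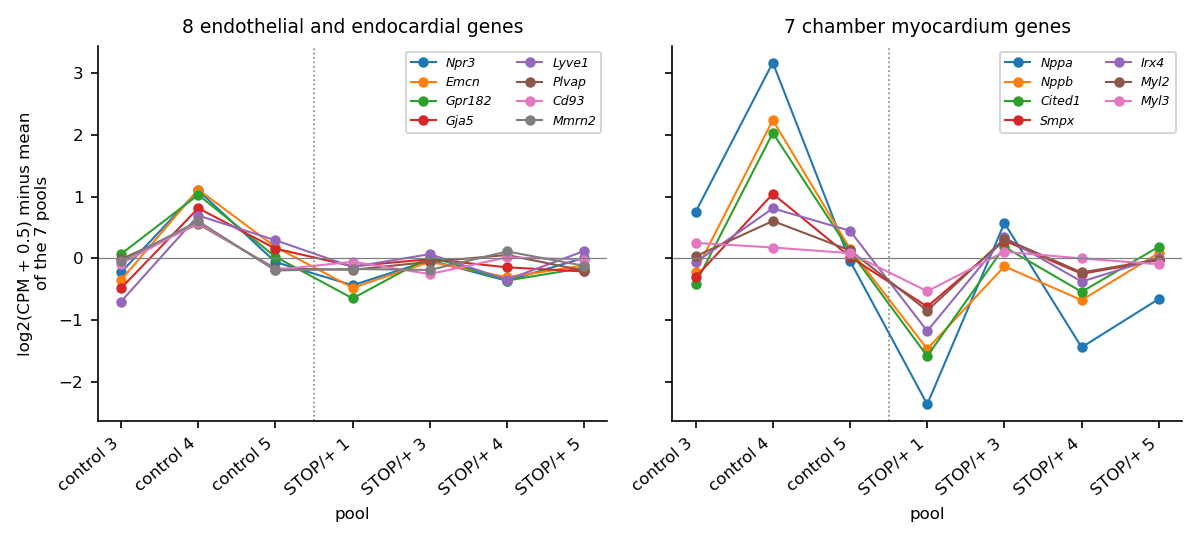
Levels by pool of the 8 endothelial and endocardial genes for which control replicate 4 was at least 1.4 times every other pool (left) and of 7 chamber myocardium genes (right), as log2(CPM + 0.5) minus the mean over the 7 pools. The 8 genes and all chamber genes but *Myl3* peak in control replicate 4, and all 7 chamber genes are lowest in *Gata6STOP/+* replicate 1.

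Without control replicate 4, the median log2 fold change over the 44 genes was 0.11 (0.0012 over all genes), and 36 genes, rather than 26, were above 0. An unadjusted *P*-value under 0.05 was then reached by 9 higher and 1 lower gene, against 4.49% and 4.32% (8.82% together) of all genes, and 0 genes passed after adjustment (13 of all genes, 0.0882%). Groups did not overlap for 9 higher and 4 lower genes, against 8.93% and 10.1% (19.1% together) of all genes. At the unadjusted level, *Pecam1*, *Cdh5* and *Gja4* joined the 6 higher genes named above, and *Flt4* was the lower gene. The median of the 33 pan-endothelial genes went from 0.05 to 0.13.

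**Figure D4:**
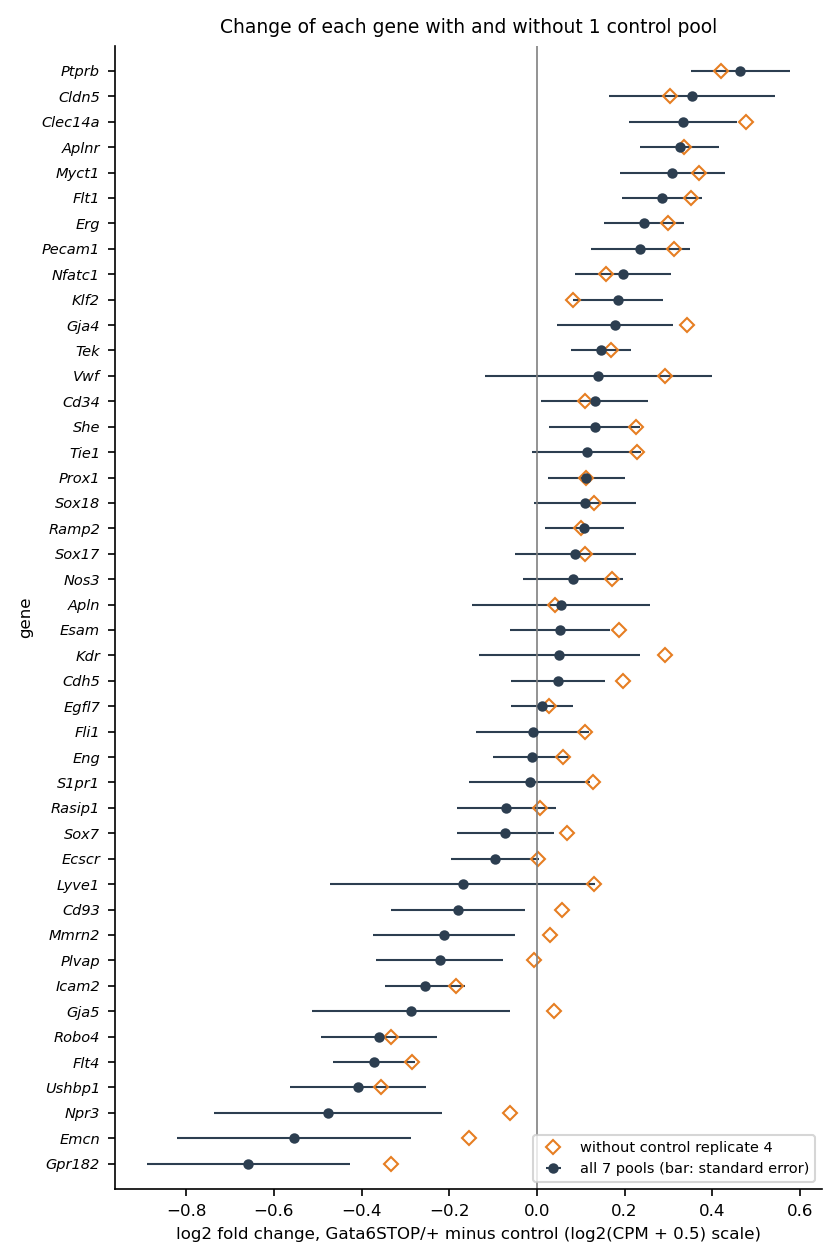
Log2 fold change of the 44 genes (*Gata6STOP/+* minus control, log2(CPM + 0.5) scale) with all 7 pools (filled circles, bars show the s.e.) and without control replicate 4 (open diamonds). *Npr3*, *Emcn*, *Gja5* and *Gpr182* shift to the right without this pool, whereas *Ptprb*, *Aplnr* and *Robo4* shift little.

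Y-linked genes also differed between the pools, whose embryos were not sexed in the labels. The 4 Y-linked genes *Ddx3y*, *Kdm5d*, *Eif2s3y* and *Uty* (4 of 4 listed) summed to 93.4, 39.9 and 71.8 CPM in control and to 158, 70.4, 174 and 140.0 CPM in *Gata6STOP/+* pools. *Gata6STOP/+* replicates 1, 4 and 5, in which *Ptprb* and *Flt1* were above all controls, had the highest of these sums, and *Gata6STOP/+* replicate 3 lay among the controls. With a covariate for the mean Y-linked level, added after the values were seen, 4 of the 44 genes had an unadjusted *P*-value under 0.05, a share near the 9.21% of all genes. These were *Aplnr* (log2 fold change 0.32), *Flt4* (-0.36), *Ushbp1* (-0.50) and *S1pr1* (0.29, where it was -0.02 without the covariate). *Ptprb* and *Flt1* did not reach this level with the covariate, at 0.19 and 0.20. Nor did *Clec14a* (0.34), *Myct1* (0.30), *Erg* (0.21), *Icam2* (-0.19), *Robo4* (-0.30) and *Gpr182* (-0.10). The log2 fold changes of *Clec14a* and *Myct1* were thus close to those without the covariate. Because the Y-linked level was mostly higher in *Gata6STOP/+* pools, its part and that of genotype cannot be told apart. Control replicate 4 had the lowest Y-linked sum, so the covariate and that pool cannot be told apart either.

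Other genes of endothelial signaling were taken from a list of 43, of which 42 were listed (*Etv2* was not). With limma, 0 passed after adjustment, and 9 (21.4%, against 8.06% of all genes) had an unadjusted *P*-value under 0.05, with 5 higher and 4 lower in *Gata6STOP/+* pools. The median log2 fold change was 0.05. Of the 13 ligands, several bind *Flt1*, *Kdr* or *Flt4*. *Vegfa* had a log2 fold change of -0.02, *Vegfc*, a ligand of VEGFR3, of 0.05, and *Pgf*, a ligand of FLT1, of 0.22. *Vegfb*, another FLT1 ligand, was at 85.3, 80.5 and 76.4 CPM in control and at 56.5, 78.7, 71.4 and 70.3 CPM in *Gata6STOP/+* pools. *Gata6STOP/+* replicate 3 was above control replicate 5 (log2 fold change -0.23, s.e. 0.099, adjusted *P*=0.598 in limma). *Bmp10*, a ligand of the endothelial receptor ALK1 that is made by chamber myocardium, was at 6.14, 66.5 and 11.3 CPM in control and at 0.631, 5.69, 1.75 and 5.79 CPM in *Gata6STOP/+* pools. The groups did not overlap, and control replicate 4 was 5.88 times the next pool. The log2 fold change of *Bmp10* was -2.46 (s.e. 0.76, adjusted *P*=0.419 in limma), or -1.49 without control replicate 4 (adjusted *P*=0.524 in limma). It was the only pathway gene called by the likelihood ratio test of edgeR (adjusted *P*=0.0317), and DESeq2 called 0 of them (adjusted *P*=0.276 for *Bmp10*).

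Among the receptors and their partners, *Calcrl*, which pairs with *Ramp2* to form the adrenomedullin receptor, was at 45.7, 62.2 and 55.0 CPM in control and at 82.5, 61.9, 69.2 and 68.2 CPM in *Gata6STOP/+* pools. *Gata6STOP/+* replicate 3 and control replicate 4 were level, and the log2 fold change was 0.37 (s.e. 0.11, adjusted *P*=0.401 in limma), where *Ramp2* itself was at 0.11. *Heg1*, a membrane protein of a pathway that stabilizes endocardial junctions, was at 163, 169 and 148 CPM in control and at 191, 175, 194 and 198 CPM in *Gata6STOP/+* pools. Every *Gata6STOP/+* pool was above every control pool (log2 fold change 0.24, s.e. 0.067, adjusted *P*=0.351 in limma), whereas *Ccm2* and *Krit1* of the same pathway were at -0.11 and 0.09. *Tmem100*, a target of ALK1 signaling, was at 3.596, 7.63 and 5.77 CPM in control and at 3.02, 3.41, 4.47 and 3.66 CPM in *Gata6STOP/+* pools, with overlap (log2 fold change -0.53, s.e. 0.22) that rested in part on control replicate 4 (-0.30 without it).

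Of the 15 listed transcription factors, *Hey1* and *Hey2* are Notch targets, and *Hey2* is also used by myocardium. *Hey2* was at 75.5, 90.5 and 88.4 CPM in control and at 93.3, 99.4, 99.7 and 95.7 CPM in *Gata6STOP/+* pools, without overlap (log2 fold change 0.20, s.e. 0.071, adjusted *P*=0.513 in limma). *Hey1* was at 44.0, 45.8 and 49.8 CPM in control and at 65.4, 49.6, 58.6 and 48.7 CPM in *Gata6STOP/+* pools, with overlap (log2 fold change 0.24, s.e. 0.10). *Hhex*, a homeobox gene of early endothelium, was at 8.58, 8.80 and 9.18 CPM in control and at 11.2, 10.2, 11.9 and 9.71 CPM in *Gata6STOP/+* pools. It did not overlap between groups (log2 fold change 0.26, s.e. 0.10, adjusted *P*=0.542 in limma). *Foxc2*, a forkhead factor of arch mesenchyme and lymphatic valves, was at 66.1, 54.8 and 59.6 CPM in control and at 57.4, 38.5, 55.0 and 45.1 CPM in *Gata6STOP/+* pools, with overlap (log2 fold change -0.31, s.e. 0.13, adjusted *P*=0.577 in limma). The receptor *Notch1* and its ligand gene *Dll4*, upstream of the *Hey* genes, had log2 fold changes of 0.06 and -0.07.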

How the data were processed

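RNA-seq was analysed in 7 pools of E11.5 OFTs, 3 control and 4 *Gata6STOP/+*. The authors trimmed 60-base single-end reads with Cutadapt, estimated gene reads with RSEM (GRCm38), left out genes that reached 1 CPM in fewer than 3 samples and deposited CPM of the TMM-adjusted library size with edgeR, 1 column per pool. The libraries were directional, but the strand setting of the counting is not given in the sources used here. Each value is a whole multiple of what 1 read is worth (100% of values within 0.01 of a read in every pool; in 3 pools the smallest value stands for 2, 4 or 6 reads), which gave 17783655 to 29035529 reads on listed genes in control and 24736761 to 34467710 in *Gata6STOP/+* pools. Of the 44 genes, *Lyve1* had the fewest reads, 13 to 71 per pool.

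All 14732 listed genes were fitted with limma 3.58.1 (R 4.3.3; lmFit, then eBayes with a trend) after the transformation log2(CPM + 0.5). The tests were two-sided and had no covariate, with Benjamini–Hochberg adjustment over all genes and a threshold of 0.05. Fold changes on this scale understate those of genes with few reads. Nothing says that the pools come from separate litters, so *P*-values measure the spread between these pools. The gene lists and members were chosen with earlier results of these data known. Genes given pool by pool are members or pathway genes with an unadjusted *P*-value under 0.05 or with groups that do not overlap, 15 members fixed by name, and *Gata6*. *Plvap*, *Cd93*, *Mmrn2*, *Emcn*, *Tie1*, *Eng*, *Vwf*, the chamber genes and the Y-linked genes were added after their values were seen. Marker lists, each described by its summed CPM, covered macrophage, erythroid, megakaryocyte, myocardium, cushion mesenchyme, smooth muscle, neural crest and glia, and epithelium genes.

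The alternatives were constants of 0.1 and 2, a mean of at least 5 CPM, median-of-ratios scaling, a block for the replicate number, DESeq2 1.42.0 and edgeR 4.0.16 on recovered reads (likelihood ratio and quasi-likelihood tests, also blocked), and leaving out each pool. A covariate of Y-linked genes was added after the data were seen. The limma, edgeR and DESeq2 fits were tested on simulated reads. Exonic lengths and positions come from GENCODE M21 (GRCm38), which holds 14723 of the 14732 identifiers, and promoter sequences from RefSeq (GRCm38.p6), which holds windows for 23 of the 44 listed genes.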

Additional observations from a re-analysis of the deposited data

Results flagged for a closer look

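Of 54 genes examined in the 4 *Gata6STOP/+* pools, 2 had a pool far from the others, where chance alone singles out about 1 group in 20. *Fli1* was at 25.7 CPM in *Gata6STOP/+* replicate 1, where the other *Gata6STOP/+* pools were between 19.2 and 20.3 CPM, a gap of 0.831 of the range, only just past the critical value of Dixon's test. *Apln* was at 2.35 CPM in the same pool, below the other *Gata6STOP/+* pools at 3.84 to 4.09 CPM (0.853 of the range).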

How the results depend on the processing

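Of the 33 genes named by the rule, 26 kept their direction under every one of the 18 alternatives that gave a value (those with a mean under 5 CPM have none with that filter). Genes outside the rule also turned. Among them, *Emcn*, *Vwf*, *Plvap* and *Eng* turned with the Y-linked covariate, to 0.05, -0.25, 0.00087 and 0.0069. *Cd93*, *Mmrn2* and *Eng* turned without control replicate 4, to 0.058, 0.029 and 0.060. With all pools, 11 of the 44 genes had an unadjusted *P*-value under 0.05 (8.06% of all genes). Without 1 pool, this number ranged from 7 (without *Gata6STOP/+* replicate 4) to 14. Groups did not overlap for 5 of the 44 with all pools (8.47% of all genes). Without 1 pool, that number ranged from 5 to 13. The 13 came without control replicate 4, where groups did not overlap for 19.1% of all genes. Fewer pools overlap less easily, and the shares of all genes without each other pool were not computed. The median log2 fold change (0.05) ranged from -0.02 to 0.11. Leaving out 1 pool gave 0 of the 44 genes past the adjusted threshold throughout. For the 42 pathway genes, 9 had an unadjusted *P*-value under 0.05 with all pools, against 8.06% of all genes. Without 1 pool, this number ranged from 6 to 12 and the median (0.05) from -0.00031 to 0.075. Of all genes, 0 to 13 passed, with 13 without control replicate 4. The log2 fold change without 1 pool ranged from -0.11 to 0.29 for *Kdr*, -0.057 to 0.20 for *Cdh5*, -0.0032 to 0.18 for *Sox17*, -0.61 to 0.038 for *Gja5*, -0.069 to 0.22 for *Apln*, -0.57 to 0.13 for *Lyve1* and -0.73 to -0.06 for *Npr3*. The likelihood ratio test of edgeR and DESeq2 gave 105 and 88 genes in all, and 1 of the 44 each, and the constant of 0.1 gave 1 gene in all. Deviations of pools with the same replicate number did not go together (r=-0.0084, -0.12 and -0.0016 for numbers 3, 4 and 5), and the numbers were not taken as pairs. With so few pools, these correlations cannot exclude pairing. A block for the replicate number leaves out *Gata6STOP/+* replicate 1. With it, limma gave 14 genes in all, edgeR's quasi-likelihood test 13 and its likelihood ratio test 118. Each of these fits gave 0 of the 44 genes. In the same order, *Kdr* was at -0.061, -0.064 and -0.063 and *Sox17* at -0.0032, -0.0019 and -0.0015. With the Y-linked covariate, chosen after seeing the data, 6 of all genes passed. An unadjusted *P*-value under 0.05 was reached by 4 of the 44 and 5 of the pathway genes, against 9.21% of all genes. The pathway median was then -0.025, and the log2 fold changes were 0.12 for *Npr3*, -0.061 for *Sox17*, 0.18 for *Gja5* and 0.37 for *Lyve1*. Control replicate 4, the lowest pool in Y-linked level, was the highest pool for *Npr3*, *Gja5*, *Lyve1*, *Emcn* and *Plvap*. The cause of these changes was not tested, and leaving out a pool shows only that a value depends on that pool. The sex and litter of the pools are not given in the sources used here.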
